A study of Mus musculus with 16 samples.

Results

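The growth hormone axis of the liver was followed through 10 genes, listed by name for their roles: the receptor Ghr, the transducers Stat5a and Stat5b, the targets Igf1 and Igfals, the feedback inhibitors Socs2 and Cish, the repressors Bcl6 and Cux2, and the activator Onecut1. Each of the 10 symbols matched 1 of the 54838 gene identifiers in the files. Messenger RNA was sequenced from whole liver of wild-type male C57BL/6J mice, whose age the labels do not give. In the injection experiment, 3 samples are from livers after CCl4, a solvent that hepatocytes turn into a toxic radical, diluted with the same volume of olive oil, and 3 are controls given the oil alone. Injections were intraperitoneal, at 2 µL for each g of mouse, and livers were taken on day 3. In the surgical experiment, partial hepatectomy (PH) gave 5 samples taken on day 3 and 5 of liver resected on day 0, which are the baseline. Samples are called livers below, and the labels do not say which come from separate mice. Some PH labels have the letter N after the replicate number. It is left out below, and its meaning is not given. There was no sham-operated group, so time, surgery and anaesthesia cannot be told apart in the PH comparison.

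Growth hormone from the pituitary binds GHR, which activates the kinase JAK2 and, through it, the transcription factors STAT5A and STAT5B. In hepatocytes STAT5 drives Igf1, the main source of circulating IGF1, and Igfals, whose product holds IGF1 in a stable complex in blood, while the STAT5 targets Socs2 and Cish dampen the receptor. In male rodents growth hormone is released in pulses, so STAT5 activity comes and goes, and this pattern sets the male-biased gene programme of the liver. BCL6 binds and represses STAT5 target genes, CUX2 is a repressor of male-biased genes known from female mouse liver, and ONECUT1 (HNF6) is an activator of many hepatocyte genes.

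CCl4 libraries held 4738196 to 6218526 counts, olive oil libraries 4295169 to 5221957, PH day 3 libraries 2795909 to 4391002 and PH day 0 libraries 3271398 to 8647503. Levels are CPM, the counts of a gene per 1e+06 counts of its library after TMM scaling, and 3 counts in a library were worth 0.368 to 1.03 CPM. CCl4 replicate 1 stood apart: chi-square per degree of freedom against the other CCl4 livers was 71.7 and 72.3, against 5.51 to 23.8 for the other pairs of replicates. That liver had 1730 CPM of Igfbp1, where CCl4 replicates 2 and 3 had 70.3 and 21.0 CPM. It also had 44.9 CPM of the leptin receptor Lepr, against 1.35 and 0.652 CPM in the other CCl4 livers. These genes were chosen after their values were seen, and CCl4 results are given with and without this liver where it matters.

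The hepatocyte markers were high in every group. They summed to 94600 to 121000 CPM in CCl4 livers and 104000 to 114000 CPM in olive oil livers. At PH day 3 the sum was 114000 to 132000 CPM, and at PH day 0 it was 78600 to 96600 CPM. Most of each sum was Alb, which averaged 92400 ± 7070 CPM at PH day 3 and 54700 ± 6500 CPM at PH day 0. Of the 10 hepatocyte markers, 2 were called higher and 2 lower after PH, where 9.73% and 8.01% of all genes were. After CCl4, 0 were called higher and 0 lower, where 11.3% and 11.6% of all genes were. Without CCl4 replicate 1, Serpina1a (-0.67), Tat (-1.83) and F2 (-0.66) were called lower. Over all genes, 3513 were then called, against 2599 with that liver. The 8 markers of dividing cells summed to 238 to 612 CPM in CCl4 livers against 7.06 to 7.26 CPM in olive oil livers, and to 114 to 280 CPM at PH day 3 against 3.72 to 11.5 CPM at PH day 0. The 8 stellate cell and myofibroblast markers summed to 347 to 894 CPM after CCl4 against 121 to 165 CPM after olive oil, and to 225.5 to 710.8 CPM at PH day 3 against 121 to 253 CPM at PH day 0. Red blood cell markers, 5 in number, summed to 134 to 242 CPM after CCl4 and 437 to 515 CPM after olive oil, and to 690 to 1880 CPM at PH day 3 and 757 to 2050 CPM at PH day 0. The 8 endothelial markers summed to 132 to 143 CPM after CCl4 and 111 to 137 CPM after olive oil, and to 112 to 180 CPM at PH day 3 against 169 to 234 CPM at PH day 0. Of these, 3 endothelial markers were called lower after PH, and 3 endothelial and 4 red blood cell markers were lower in olive oil livers than at PH day 0. Among all genes, 8.01% were called lower after PH and 1.23% lower in olive oil livers than at PH day 0. The part of these shifts in the values below was not tested, and in whole liver fewer cells of a type cannot be told apart from less RNA per cell.

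The short sequences that STAT5 and BCL6 are known to recognise share the form TTCNNNGAA. They are shown here because Igfals, Cish and Bcl6 carry it close to an annotated start. The letters were searched in the 250 bases before and 50 after each RefSeq start (GRCm38.p6), where the form reads the same on both strands. Of the 10 genes, 9 (all but Socs2) matched an entry, with 16 windows, and 5 windows held the form, against 8.29% of all 32817 windows of that length. A form with 1 more base in its middle was in 0 of the 16 windows and in 6.94% of all windows. Capitals mark the match, and each line runs 5′ to 3′ on the strand of the gene.
Igfals, chr17:24878163-24878191, plus strand, first letter 58 bases before the start: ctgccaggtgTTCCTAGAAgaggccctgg
Igfals, chr17:24877598-24877626, plus strand, 236 bases before an upstream start: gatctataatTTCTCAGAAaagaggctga
Cish, chr9:107296654-107296683, plus strand, from base 1 after the start: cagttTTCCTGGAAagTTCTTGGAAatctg
Bcl6, chr16:23981433-23981461, minus strand, 168 bases before the start: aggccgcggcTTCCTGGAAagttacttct
Bcl6, chr16:23981387-23981415, minus strand, 122 bases before the same start: ggcaggagtgTTCTGTGAAatccttagag
Bcl6, chr16:23981353-23981381, minus strand, 88 bases before the same start: atcgactacgTTCCGGGAAtgagagggct
Bcl6, chr16:23988952-23988980, minus strand, 118 bases before an upstream start: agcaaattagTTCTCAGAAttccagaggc
At least 2 matches in 1 window, as for the 2 in Cish and the 3 at the downstream start of Bcl6, were found in 0.457% of all windows. These letters are a description of the sequence and do not show that a factor was bound.

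Ghr and Igfals, the receptor and the subunit that stabilises circulating IGF1, were lower after both challenges, and Socs2 was lower after PH. After CCl4, 2 of the 10 genes were lower and 0 higher, with 9 tested. Of all 11337 genes tested, 11.6% were called lower and 11.3% higher, or 22.9% in all (edgeR, quasi-likelihood F test, with a Benjamini-Hochberg adjusted p below 0.05). With both directions counted, the axis was near that share after CCl4. After PH, 3 of the 10 were lower and 0 higher, where 8.01% of 10546 genes were lower and 9.73% higher, or 17.7% in all. The median log2 fold change of the 9 tested genes was -0.46 after CCl4, beside 0.01 for all genes, and -0.51 after PH, beside -0.01. The samples of the paired groups did not overlap for those same 2 and 3 genes, against 41.6% of all genes between CCl4 and olive oil and 13.4% between PH day 3 and PH day 0. Between CCl4 and olive oil, the axis was thus below the share of all genes. Library size scaling alone puts the median of all genes at 0.46 after CCl4 and 0.13 after PH, and it puts 87.5% and 78.9% of calls on the higher side, against 49.2% and 54.8% here. Under it, Ghr and Igfals stayed lower after both challenges, and Socs2 stayed lower after PH.

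**Figure D1:**
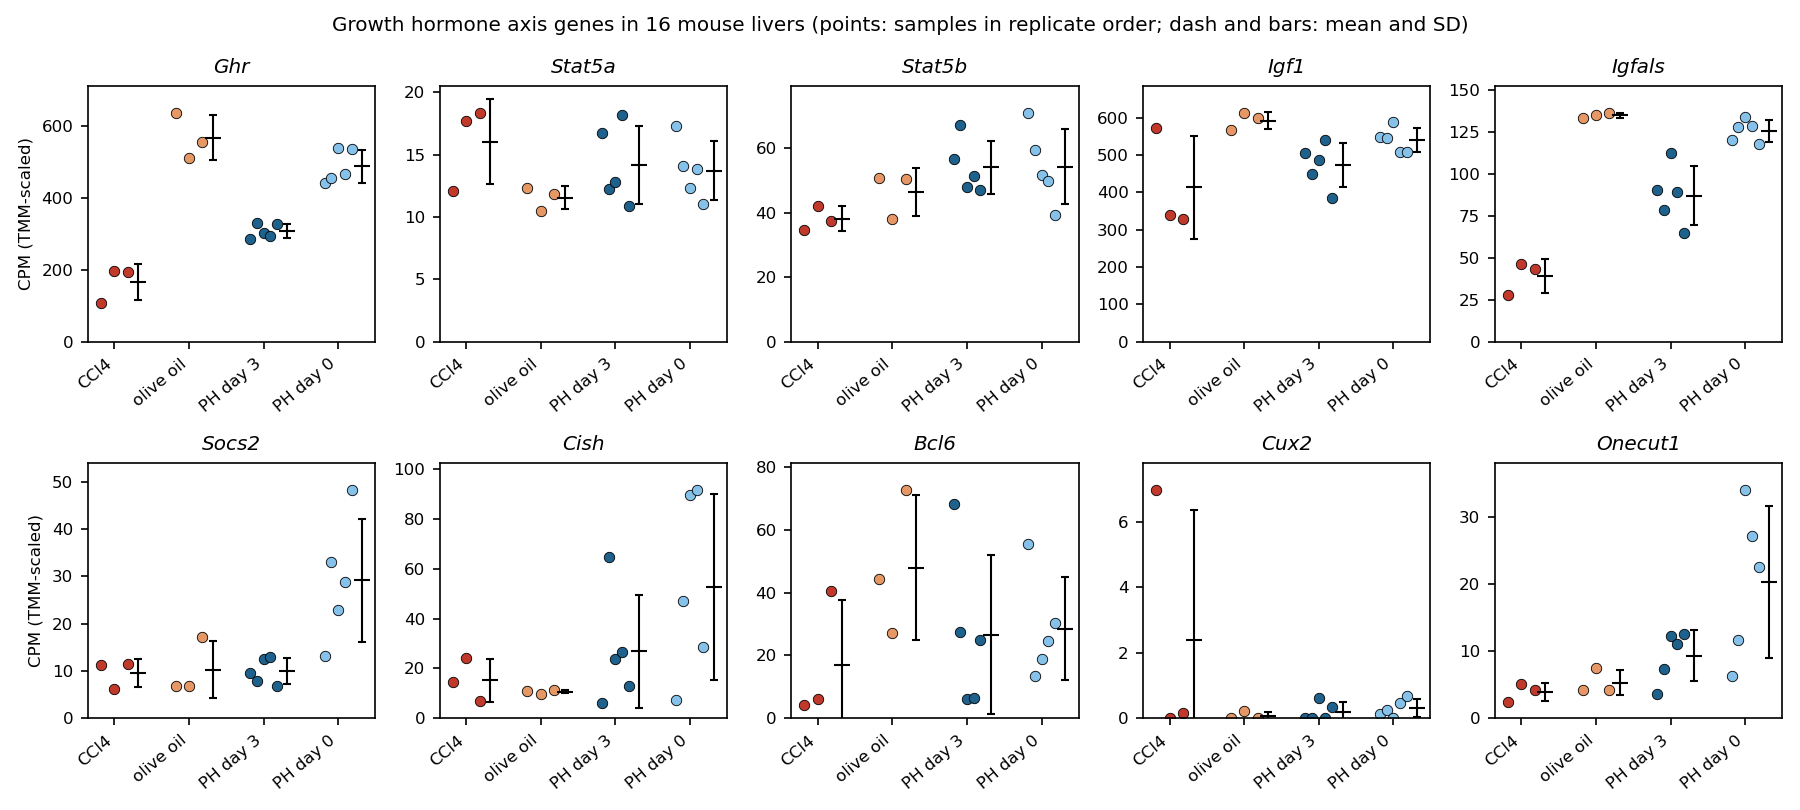
Level of each of the 10 genes (y axis, CPM after TMM scaling, from 0) in the CCl4, olive oil, PH day 3 and PH day 0 groups (x axis). Points are the 16 samples in replicate order, the dash and bars are the mean and SD, drawn down to 0 at most, and Ghr and Igfals step down in the challenged groups while Cish and Bcl6 spread widely within groups.

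Ghr, the growth hormone receptor (ENSMUSG00000055737, chromosome 15, 3317760 to 3583492, minus strand of GRCm38), had 108, 196 and 193 CPM in CCl4 livers, against 636, 512 and 558 CPM in olive oil livers. Every CCl4 liver was below every olive oil liver, and replicate 1 was the lowest. The means were 166 ± 49.7 and 569 ± 62.7 CPM (SD, n = 3 each), a log2 fold change of -1.80 ± 0.25 (SE), or 3.48-fold lower (edgeR adjusted p = 0.00079). Without CCl4 replicate 1 it was -1.56 (adjusted p = 3e-06). In the surgical experiment, Ghr had 286, 330, 303, 294 and 329 CPM at PH day 3, against 443, 457, 539, 467 and 537 CPM at PH day 0. The groups did not overlap here either, with means of 308 ± 20.1 and 489 ± 45.9 CPM (n = 5 each). That is a log2 fold change of -0.65 ± 0.09, or 1.57-fold lower (edgeR adjusted p = 9.7e-06).

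The response of Ghr was larger after CCl4 than after PH, with a difference of -1.11 ± 0.21 on the log2 scale (edgeR adjusted p = 0.0025). With library size scaling alone this difference was -0.79 and no longer passed (adjusted p = 0.089). Igfals differed in the same direction, by -1.25 ± 0.21 (adjusted p = 0.00095), and kept its call under all 23 alternatives run (adjusted p up to 0.043). These were 2 of 10 genes, 9 of them tested, where 3.87% of 11868 genes were called lower and 1.47% higher, or 5.33% in all. Injection and surgery were run as separate experiments per the file headers, so challenge and experiment cannot be told apart in this difference.

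The STAT5 genes lie side by side on chromosome 11. Stat5b (ENSMUSG00000020919, 100780731 to 100850724, minus strand), the form that carries most of the growth hormone signal in male mouse liver, had 34.7, 42.2 and 37.5 CPM in CCl4 livers against 50.8, 37.9 and 50.4 CPM in olive oil livers. The ranges overlap, and the log2 fold change of -0.30 ± 0.16 did not pass (adjusted p = 0.23). Its sign turned to 0.16 with library size scaling alone. After PH, it had 56.5, 67.3, 47.9, 51.5 and 46.9 CPM at day 3, against 70.8, 59.5, 51.7, 49.8 and 39.4 CPM at PH day 0, with means of 54.0 ± 8.3 and 54.2 ± 11.7 CPM. The ranges lie almost on top of each other, with a log2 fold change of 0.00 ± 0.14 in size (adjusted p = 1).

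Stat5a, the close relative of Stat5b (ENSMUSG00000004043, 100859351 to 100885169, plus strand), had 12.1, 17.7 and 18.3 CPM after CCl4 and 12.3, 10.5 and 11.8 CPM after olive oil. CCl4 replicate 1 lay among the olive oil livers and the other CCl4 livers lay above them. The change on the log2 scale was 0.46 ± 0.23 (adjusted p = 0.18). It was 0.63 without CCl4 replicate 1 (adjusted p = 0.0498) and 0.94 with library size scaling alone (adjusted p = 0.034), and these were the only alternatives of 12 that called it. In PH day 3 livers it had 10.9 to 18.2 CPM, median 12.8, against 11 to 17.3 CPM, median 13.8, at PH day 0. There it was 0.06 ± 0.19 (adjusted p = 0.88).

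Within a liver, the ratio of Stat5b to Stat5a counts does not depend on scaling. It was 2.86, 2.38 and 2.05 in CCl4 livers and 4.11, 3.58 and 4.25 in olive oil livers, so every CCl4 liver was below every olive oil liver. The mean log2 ratios were 1.27 ± 0.24 and 1.99 ± 0.13 (SD), a difference of -0.72 (two-sided exact permutation p = 0.1, the smallest that 3 against 3 samples can give). After PH, the ratio ranged from 2.82 to 5.46 at day 3 and 3.55 to 4.18 at day 0. The mean log2 ratios were 1.94 ± 0.36 and 1.97 ± 0.12, a difference of -0.03 (two-sided exact permutation p = 0.873, where 0.00794 is the smallest possible). A ratio shows unequal change and not which of the genes changed. Exons of Stat5a overlap those of Stat3 on the other strand, and reads counted on the wrong strand were not measured.

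Igf1, the hormone that the liver releases in response to growth hormone (ENSMUSG00000020053, chromosome 10, 87858265 to 87937042, plus strand), had 571.8, 339.6 and 329.3 CPM in CCl4 livers, against 567.5, 612.1 and 598.7 CPM in olive oil livers. CCl4 replicate 1 was at the level of the olive oil livers, and the other CCl4 livers were below all of them. The log2 fold change was -0.54 ± 0.24 and did not pass with all livers (edgeR adjusted p = 0.13). Without CCl4 replicate 1 it was -0.84 and passed (adjusted p = 0.00034), and its difference from the PH response then passed too, at -0.64 (adjusted p = 0.012), against -0.33 (adjusted p = 0.43) with that liver. The other 11 alternatives made no call for Igf1 after CCl4. After PH, the day 3 livers had 505.3, 448.8, 486.5, 541.7 and 385.9 CPM of Igf1, against 547.6, 546.5, 588.5, 509.8 and 508.9 CPM at PH day 0. Those groups overlap, with means of 474 ± 59.4 and 540 ± 32.9 CPM and a log2 fold change of -0.17 ± 0.10 (adjusted p = 0.24).

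Igfals, the acid-labile subunit of the circulating IGF1 complex (ENSMUSG00000046070, chromosome 17, 24865997 to 24882010, plus strand), had 27.9, 46.6 and 43.2 CPM after CCl4, against 133, 135 and 136 CPM after olive oil. The olive oil livers were nearly equal and far above all CCl4 livers. The log2 fold change was -1.80 ± 0.19, or 3.47-fold lower (adjusted p = 0.00018), and -1.60 without CCl4 replicate 1 (adjusted p = 7.2e-07). The PH day 3 livers had 90.6, 78.7, 112, 89.4 and 64.9 CPM, against 120, 128, 134, 129 and 118 CPM at PH day 0. No PH day 3 liver reached the lowest PH day 0 sample, and the fall was 1.43-fold, a log2 fold change of -0.51 ± 0.11 (adjusted p = 0.0019). In the CCl4 liver where Igf1 was highest, Ghr and Igfals were at their lowest of all 16 samples.

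**Figure D2:**
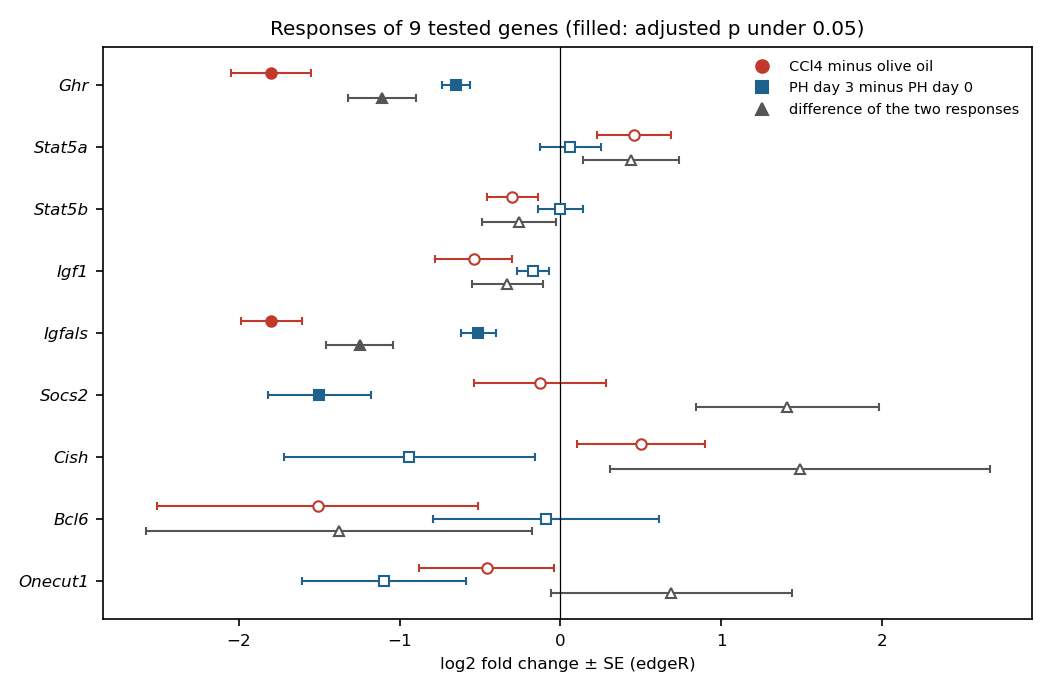
Log2 fold change ± SE (x axis, edgeR) of the 9 tested genes (y axis) for CCl4 minus olive oil (circles), PH day 3 minus PH day 0 (squares) and the difference between these responses (triangles). Filled symbols have an adjusted p under 0.05: Ghr and Igfals in all 3 rows and Socs2 after PH (-1.50).

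Socs2, a STAT5 target whose product limits growth hormone receptor signalling (ENSMUSG00000020027, chromosome 10, 95385362 to 95417180, minus strand), had 11.2, 6.14 and 11.4 CPM in CCl4 livers and 6.76, 6.80 and 17.2 CPM in olive oil livers. These groups overlap, and the log2 fold change was -0.13 ± 0.41 (adjusted p = 0.86). After PH, Socs2 had 9.49, 7.79, 12.5, 12.9 and 6.80 CPM at day 3, against 13.1, 33.0, 22.9, 28.8 and 48.3 CPM at PH day 0. All PH day 3 livers were below all PH day 0 samples, although the highest PH day 3 liver and the lowest PH day 0 sample were close. Socs2 fell 2.84-fold, a log2 fold change of -1.50 ± 0.32 (edgeR adjusted p = 0.0067), and it was called under all 17 alternatives. The difference between the responses was 1.41 ± 0.57 and did not pass (adjusted p = 0.18). Olive oil livers averaged 10.2 ± 6.01 CPM and PH day 0 samples 29.2 ± 13.0 CPM, and that difference did not pass either (adjusted p = 0.073).

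Cish, another feedback inhibitor that growth hormone pulses induce (ENSMUSG00000032578, chromosome 9, 107296026 to 107302784, plus strand), had 14.4, 24.1 and 6.84 CPM after CCl4 and 10.8, 9.87 and 11.3 CPM after olive oil. At PH day 3 it had 6.10, 64.9, 23.8, 26.4 and 12.9 CPM, against 7.21, 47.1, 89.8, 91.7 and 28.4 CPM at PH day 0. The highest sample exceeded the lowest 10.6-fold at PH day 3 and 12.7-fold at PH day 0, while for Ghr these spreads were 1.15-fold and 1.22-fold. The log2 fold changes of 0.50 ± 0.40 after CCl4 (adjusted p = 0.41) and -0.94 ± 0.78 after PH (adjusted p = 0.48) did not pass. An interval of 2 SE on either side of the PH value holds both 0 and the log2 fold change seen for Socs2.

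Bcl6, the repressor (ENSMUSG00000022508, chromosome 16, 23965052 to 23988852, minus strand), had 4.23, 6.02 and 40.7 CPM in CCl4 livers, against 44.3, 27.0 and 72.8 CPM in olive oil livers. CCl4 replicates 1 and 2 were below all olive oil livers and replicate 3 was among them. The log2 fold change was -1.51 ± 1.00 (adjusted p = 0.36), and it was -3.21 (adjusted p = 0.0066) without CCl4 replicate 3. PH day 3 livers had 68.3, 27.5, 5.95, 6.44 and 24.8 CPM, against 55.6, 13.4, 18.9, 24.7 and 30.2 CPM at PH day 0. The ranges overlap, and the log2 fold change of -0.09 ± 0.70 did not pass (adjusted p = 0.95).

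Cish and Bcl6 were also set side by side within groups. The liver with the lowest Cish had the highest Bcl6 in 3 of 4 groups, namely replicate 3 of CCl4, replicate 12 of PH day 3 and replicate 12 of PH day 0. The other end did not match, since the liver with the highest Cish had the lowest Bcl6 in 0 of 4 groups. In the olive oil group both genes were lowest in replicate 2 and highest in replicate 3. These counts describe extremes in groups of 3 to 5 and were made after the values were seen.

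**Figure D3:**
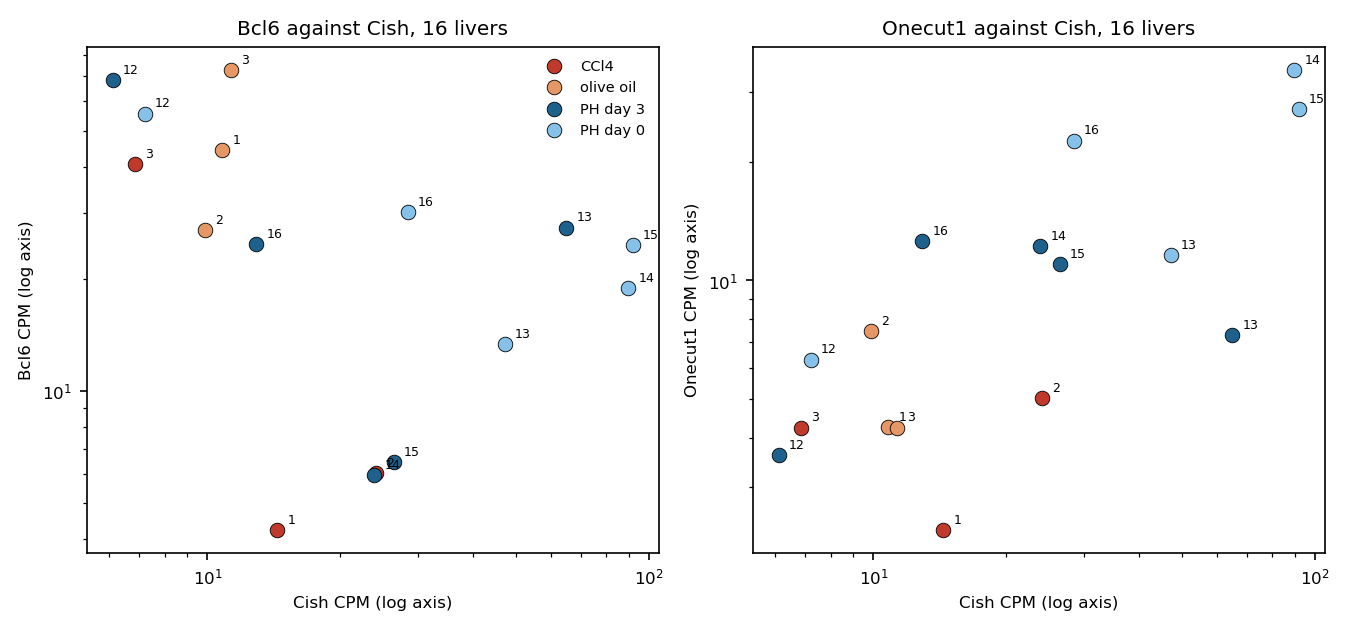
Left, Bcl6 against Cish, and right, Onecut1 against Cish, in CPM on log axes, with 1 point for each of the 16 samples, coloured by group and marked with its replicate number. Replicate 12 of PH day 3 and of PH day 0 sits at low Cish, high Bcl6 and low Onecut1.

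Cux2 (ENSMUSG00000042589, chromosome 5, 121856366 to 122050102, minus strand), the repressor of male-biased genes in female liver, was near the limit of detection. It had 33, 0 and 1 counts in CCl4 livers and 0, 1 and 0 counts in olive oil livers. PH day 3 livers had 0, 0, 2, 0 and 1 counts, and PH day 0 samples had 1, 1, 0, 2 and 2 counts. CCl4 replicate 1, at 6.98 CPM, thus held 33 of the 34 CCl4 counts, and in every other library the count was below 3. Cux2 did not pass the filter on low counts and was not tested. With no filter on low counts, edgeR called it after CCl4 (adjusted p = 0.0043), on the counts of that liver.

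Onecut1 (ENSMUSG00000043013, chromosome 9, 74861921 to 74891781, plus strand), the HNF6 activator, had 2.33, 5.03 and 4.24 CPM in CCl4 livers and 4.25, 7.45 and 4.24 CPM in olive oil livers. These overlap, with a log2 fold change of -0.46 ± 0.42 (adjusted p = 0.47). Livers of PH day 3 had 3.62, 7.27, 12.2, 11 and 12.6 CPM, against 6.30, 11.6, 34.1, 27.2 and 22.6 CPM at PH day 0. Replicate 12 was the lowest of its group at each time. The log2 fold change after PH was -1.10 ± 0.51 and did not pass (adjusted p = 0.19), and without PH day 0 replicate 12 it was -1.37 and passed (adjusted p = 0.022).

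Per kilobase of exon, where genes can be compared, Ghr and Igf1 had the highest levels of the axis. Ghr was at 18.3 ± 5.49 CPM per kb in CCl4 livers, 62.8 ± 6.92 in olive oil livers, 34.1 ± 2.22 at PH day 3 and 54.0 ± 5.07 at PH day 0. Igf1 was at 41.8 ± 13.8 CPM per kb in CCl4 livers, 59.9 ± 2.31 in olive oil livers, 47.8 ± 6.0 at PH day 3 and 54.5 ± 3.32 at PH day 0. Igf1 was thus above Ghr on average in CCl4 livers and at PH day 3, and close to it in olive oil livers and at PH day 0. Stat5b lay between 6.89 ± 0.687 CPM per kb in CCl4 livers and 9.79 ± 2.12 at PH day 0, and Stat5a between 1.61 ± 0.126 in olive oil livers and 2.24 ± 0.479 in CCl4 livers.

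Ordered over the 4 groups in CPM, Ghr and Igfals were highest in olive oil livers, followed by PH day 0, PH day 3 and CCl4. Olive oil and PH day 0 samples overlapped for both genes, while each later step had no overlap. For the other 8 genes, every pair of neighbours in the order overlapped. Olive oil livers against PH day 0 samples gave 0 calls among the 10 genes with edgeR, where 1.23% of 11868 genes were called lower and 1.19% higher, or 2.42% in all. Of the 9 tested, 3 had an unadjusted p under 0.05. Socs2 had a log2 fold change of -1.48 ± 0.41 (adjusted p = 0.073), Onecut1 one of -1.90 ± 0.53 (adjusted p = 0.078) and Cish one of -2.30 ± 0.89 (adjusted p = 0.25). DESeq2 called 2 of them, Socs2 (adjusted p = 0.0057) and Onecut1 (adjusted p = 0.0033), and limma-voom called 0. Olive oil injection and the experiment cannot be told apart in these values.

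The genes whose pattern was most like that of Ghr over the 16 samples were Slco1b2, an uptake transporter of hepatocytes, Mlxipl, the carbohydrate-responsive factor ChREBP, and Srd5a1, a steroid 5-alpha reductase. Likeness is the root mean square difference of log2(CPM + 1) after centring each gene, over 7616 genes with a mean of at least 10 CPM, and it was 0.13, 0.20 and 0.22 for these genes, beside a spread of 0.67 for Ghr itself. Slco1b2 averaged 285 CPM in CCl4 livers, 942 CPM in olive oil livers, 552 CPM at PH day 3 and 819 CPM at PH day 0. For Igfals the nearest were Slco1b2 (0.20), the epoxygenase Cyp2j5 (0.21) and Mlxipl (0.22). For Igf1 they were the prothrombin gene F2 (0.12), Aup1 (0.12) and Atxn2l (0.13), beside its own spread of 0.27. F2 is also one of the hepatocyte markers. All of these share libraries and scaling with the gene they are set against.

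Downstream of the receptor, 6 of 29 tested genes of a list of 30 signalling genes were higher after CCl4 and 5 lower, beside 11.3% and 11.6% of all genes, and with a median of 0.10 beside 0.01. With library size scaling alone the count was 10 higher and 0 lower. The higher ones included Cbl, a ubiquitin ligase of activated receptors, at 1.11 ± 0.26 (adjusted p = 0.014), the receptor Sirpa at 1.45 ± 0.33 (adjusted p = 0.015) and the kinase Mapk3 at 0.62 ± 0.15 (adjusted p = 0.016). Adam17, the protease that sheds GHR, Irs1 and Ptpn11 were the other higher ones, and Pik3r1, Sh2b1, Socs7, Ptpn6 and Sos1 were lower. Sirpa is also expressed by macrophages, whose 10 markers summed to 405 to 596 CPM after CCl4 and 179 to 544 CPM after olive oil. Of these markers, 3 were called higher and 1 lower after CCl4, where 11.3% and 11.6% of all genes were. Their part in the Sirpa value was not tested. For the signalling list, the count was 5 higher and 4 lower without CCl4 replicate 1, with Ptpn11 and Socs7 no longer called. Leaving out any 1 library gave 0 to 5 higher and 0 to 4 lower. Without olive oil replicate 3 there were 0 higher and 1 lower, and without olive oil replicate 1 there were 2 higher and 0 lower.

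After PH, 2 of the 29 signalling genes were higher, the insulin receptor substrates Irs2 and Irs1, and 3 were lower, among them Pik3r1 and Sh2b1. Of all genes, 17.7% were called after PH, so this list was near that share. Irs2 had 34.6, 20, 27.9, 33.1 and 27.5 CPM at PH day 3, against 18.9, 8.18, 8.53, 5.30 and 13.0 CPM at PH day 0. Every PH day 3 liver was above every PH day 0 sample, and the log2 fold change was 1.39 ± 0.28 (adjusted p = 0.0032). Irs1 was higher after both challenges, by 0.85 ± 0.25 after CCl4 (adjusted p = 0.035) and 0.68 ± 0.17 after PH (adjusted p = 0.0055). The phosphatidylinositol 3-kinase subunit Pik3r1 was lower after both, by a log2 fold change of -0.80 ± 0.23 after CCl4 (adjusted p = 0.031) and -0.43 ± 0.12 after PH (adjusted p = 0.014). Library size scaling alone gave 6 higher and 0 lower after PH.

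Among 20 genes of IGF ligands, receptors and binding proteins, 10 were tested after CCl4 and 0 were called, beside 22.9% of all genes. Their median was 0.23, beside 0.01 for all genes. Without CCl4 replicate 1, where 3513 genes were called against 2599 with it, 12 were tested. Of these, 2 were higher (Igfbp7 and Grb10) and 3 lower. The lower ones were the binding proteins Igfbp4 at -1.22 (adjusted p = 3.8e-05) and Igfbp2, and the insulin receptor Insr. The binding protein Igfbp1, an inhibitor of free IGF1, had 1730, 70.3 and 21.0 CPM in CCl4 livers against 17.3, 16.2 and 8.48 CPM in olive oil livers. All CCl4 livers were above all olive oil livers, but the spread among them left the log2 fold change of 5.42 ± 2.10 short of the threshold (adjusted p = 0.15). After PH, 9 were tested, with 2 higher and 2 lower, beside 17.7% of all genes called. Igf2r, which clears IGF2, was higher at 0.62 ± 0.11 (adjusted p = 0.00036). Igfbp1 was higher as well, Igfbp4 was lower at -0.30 ± 0.09 (adjusted p = 0.018), and Igfbp3 was lower. With library size scaling alone 0 of the list were lower after PH, and leaving out 1 library gave 1 to 2 higher and 1 to 2 lower. Igfbp1 had 112, 34.8, 143, 94.0 and 127 CPM at PH day 3, against 32.9, 9.67, 5.59, 29.5 and 40.4 CPM at PH day 0. Only PH day 3 replicate 13 lay within the range of PH day 0, and the log2 fold change was 2.12 ± 0.56 (adjusted p = 0.033). Igfbp3, which binds IGF1 together with the product of Igfals, was at -0.98 ± 0.33 after PH (adjusted p = 0.04) and 0.02 ± 0.32 after CCl4 (adjusted p = 0.97).

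Most of the male-biased genes that depend on pulsed growth hormone were lower after each challenge. After CCl4, 18 of 25 tested, of 26 listed, were lower and 0 higher, where 11.6% of all genes were lower, with a median log2 fold change of -2.58 beside 0.01 for all genes. Without CCl4 replicate 1, 23 of 26 were lower, and with library size scaling alone 13 were lower and 0 higher. After PH, 22 of 25 were lower and 0 higher, where 8.01% of all genes were lower, with a median of -1.45 beside -0.01. The glutathione transferase Gstp1 was called in neither, at -0.29 ± 0.22 after CCl4 (adjusted p = 0.39) and -0.18 ± 0.12 after PH (adjusted p = 0.32). The list was chosen with earlier results of these data known, so its direction is not independent evidence. The steroid dehydrogenase Hsd3b5 had 0.423, 13.3 and 20.2 CPM in CCl4 livers against 285, 254 and 286 CPM in olive oil livers. At PH day 3 it averaged 31.8 ± 8.02 CPM against 326 ± 40.5 CPM at PH day 0, a log2 fold change of -3.34 ± 0.14 (adjusted p = 9.2e-12). The oxysterol hydroxylase Cyp7b1 was at -2.67 ± 0.22 after CCl4 (adjusted p = 5.3e-05) and -1.89 ± 0.10 after PH (adjusted p = 1.3e-11). The major urinary protein Mup1 fell by 3.97 on the log2 scale after CCl4 (adjusted p = 3.6e-05). Mup and Cyp4a12 genes have near-identical copies whose reads may have been split or left out, so their values are uncertain.

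Susd4, a complement regulator of the male-biased list, separated the challenges. It had 9.31, 8.96 and 5.38 CPM in CCl4 livers against 63.1, 62.0 and 50.6 CPM in olive oil livers, and 60.6 ± 5.4 CPM at PH day 3 against 60.3 ± 12.4 CPM at PH day 0. The log2 fold change was -2.91 ± 0.22 after CCl4 (adjusted p = 4.4e-05) and 0.02 ± 0.12 after PH (adjusted p = 0.95), and the difference was -2.89 ± 0.24 (adjusted p = 1.1e-07). In all, 9 of 26 male-biased genes differed between the responses, each of them lower after CCl4 relative to PH. Over all 11868 genes, 3.87% were called lower and 1.47% higher. Among the 9 were Mup1, Mup3, Mup7, Mup11 and Cyp4a12b, whose reads may have been split or left out. With library size scaling alone 5 male-biased genes differed. Leaving out 1 library gave 4 to 9, with 4 without olive oil replicate 3.

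Of 23 female-biased genes, 12 passed the filter on low counts in the CCl4 comparison and 12 in the PH comparison. After PH, 7 of 12 were higher and 0 lower, where 9.73% of all genes were higher, with a median of 1.46 beside -0.01 for all genes. Cyp3a44, a cytochrome P450 with near-identical copies, had 192, 195, 232, 195 and 325 CPM at PH day 3, against 88.3, 68.7, 87.4, 86.4 and 108 CPM at PH day 0. The groups did not overlap, and the log2 fold change was 1.39 ± 0.15 (adjusted p = 1.3e-05). The other calls with the smallest adjusted p were Cyp3a16 at 1.42 ± 0.15 and Cyp3a41b at 1.50 ± 0.18, whose reads may be shared with Cyp3a44. After CCl4, 1 of 12 was higher and 1 lower, where 11.3% and 11.6% of all genes were. The higher one was the peroxisomal transporter Abcd2 at 2.28 ± 0.27 (adjusted p = 0.00037). The lower one was Cyp2a4 at -6.07 ± 0.68 (adjusted p = 0.003). Without CCl4 replicate 1, 13 were tested, 3 were higher (Abcd2, Nipal1 and Ntrk2) and 3 lower (Cyp2a4, Cyp17a1 and Tox).

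**Figure D4:**
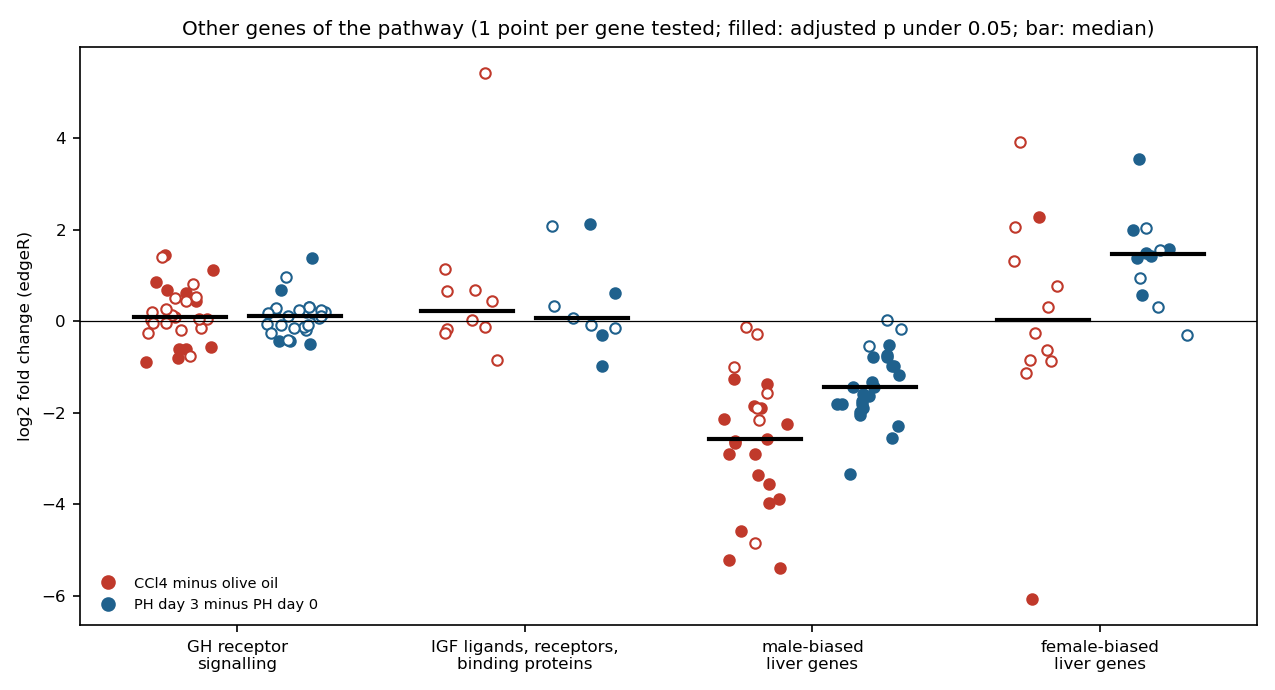
Log2 fold change (y axis, edgeR) of each tested gene of 4 lists (x axis) for CCl4 minus olive oil (red) and PH day 3 minus PH day 0 (blue). Filled points have an adjusted p under 0.05 and bars are medians: male-biased genes lie at medians of -2.58 and -1.45, and female-biased genes at 0.04 and 1.46.

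Cytokines of the IL-6 family share JAK kinases with growth hormone and act through STAT3. Of 16 such receptors and targets, 15 were tested, with 1 higher and 1 lower after CCl4 and 1 higher and 3 lower after PH, beside 22.9% and 17.7% of all genes called. The median after CCl4 was -0.50 without CCl4 replicate 1, against 0.32 with it, and 2 were lower, Lifr and Il6ra. Without PH day 0 replicate 12, 3 were higher and 2 lower after PH. Osmr, the oncostatin M receptor, was higher after both, at 2.45 ± 0.57 after CCl4 (adjusted p = 0.012) and 1.6 ± 0.32 after PH (adjusted p = 0.00094). Its CCl4 call was lost without olive oil replicate 1 (adjusted p = 0.051) or 3 (adjusted p = 0.068). Lifr, the receptor for leukaemia inhibitory factor, was lower after both, at -1.51 ± 0.24 after CCl4 (adjusted p = 0.0019) and -1.56 ± 0.21 after PH (adjusted p = 0.00043). The iron hormone Hamp was lower after PH at -2.02 ± 0.35 (adjusted p = 0.0043), as was the shared receptor subunit Il6st at -0.23 ± 0.08 (adjusted p = 0.049). Hamp averaged 82.1 ± 35.0 CPM at PH day 3 against 335 ± 35.0 CPM at PH day 0, and it had 1330, 396 and 344 CPM after CCl4 against 384, 183 and 398 CPM after olive oil, which did not pass (adjusted p = 0.28).

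Of 18 liver transcription factors that work beside Onecut1, 4 were lower and 0 higher after CCl4, beside 22.9% of all genes called, with a median of -0.16, and with library size scaling alone 2 were higher and 2 lower. The bile acid receptor Nr1h4 was at -0.99 ± 0.15 (adjusted p = 0.0012), Ppara at -1.05 ± 0.17 (adjusted p = 0.0021), Cebpa at -1.27 ± 0.24 (adjusted p = 0.0044), and the remaining one was Onecut2, a relative of Onecut1. After PH, 17 were tested, with 1 higher and 2 lower, beside 17.7% of all genes called, so this list was near that share. Rora was higher at 0.57 ± 0.12 (adjusted p = 0.00094). Cebpa at -0.64 ± 0.12 (adjusted p = 0.0011) and Foxa1 at -0.94 ± 0.24 (adjusted p = 0.009) were lower. Without PH day 0 replicate 12, or without PH day 3 replicate 14, 4 were lower.

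Between the baselines of the experiments, 2.42% of all genes were called, and olive oil injection and experiment cannot be told apart there either. The counts in the lists were 0 of 29 signalling genes, 1 higher of 12 IGF genes, 1 lower of 26 male-biased genes, 2 higher of 14 female-biased genes, 1 higher of 16 IL-6 family genes, and 2 higher and 2 lower of 18 transcription factors. Olive oil livers had less Elovl3, a male-biased fatty acid elongase, than PH day 0 samples, at 94.5 ± 8.57 CPM against 395 ± 147 CPM, a log2 fold change of -2.07 ± 0.35 (edgeR adjusted p = 0.006). PH day 0 replicate 12, at 655 CPM, was well above the other PH day 0 samples, which had 299 to 367 CPM. Olive oil livers had more of the female-biased Abcd2 (1.75 ± 0.35, adjusted p = 0.0074) and Cyp2a4 (2.12 ± 0.37, adjusted p = 0.0092), and more Igf2r (0.47 ± 0.12, adjusted p = 0.042) and Il6ra (0.97 ± 0.23, adjusted p = 0.033). Among transcription factors, Ppara (1.03 ± 0.16) and Prox1 (0.86 ± 0.15) were higher in olive oil livers, and Foxa2 (-1.05 ± 0.23) and Foxa1 were lower. Leaving out any 1 of the 8 libraries ended the call of Igf2r, and leaving out any 1 olive oil liver ended that of Foxa2. The call of Il6ra was lost without any of 5 libraries (olive oil replicates 2 and 3, PH day 0 replicates 12, 15 and 16), and those of Abcd2 and Cyp2a4 without olive oil replicate 3. Those of Elovl3, Ppara and Prox1 held each time.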

How the data were processed

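For every liver the authors deposited 1 file with the raw count of each gene. Per the file headers, reads were counted with featureCounts 1.6.2 over Ensembl 95 exons (GRCm38), reverse-stranded, without options for multi-mapping reads. The submitters' processing notes name STAR 2.5.1 and Subread without settings. RNA came from snap-frozen liver, per the labels' protocols. Since no label says whether the samples of a group are from separate mice, a p-value covers the spread among these samples, which may be technical. The counts of each sample, 2795909 to 8647503 in total, were filtered with filterByExpr (at least 10 counts, at least 15 in total), scaled by TMM and tested by the robust quasi-likelihood F test of edgeR 4.0.16 (R 4.3.3). A call is a Benjamini-Hochberg adjusted p below 0.05 over all genes. CCl4 against olive oil and PH day 3 against PH day 0 had separate fits, and other contrasts used all 16 samples. SE was obtained from the size of the log2 fold change and F, as their quotient after taking the root of F. Floors of 3 counts cover counting error only. Alternatives were RLE factors, library size only, DESeq2 1.42.0, limma-voom (limma 3.58.1), no filter, 1 CPM, leaving out each sample, and a block for the replicate number. For the Stat5b to Stat5a ratio 0.5 was added to each count, or 1 as an alternative. From each pathway list, the 3 called genes of smallest adjusted p per comparison were named, along with the called members behind small counts. Other genes named, and further values of list members beside them, were chosen after values were seen. The genes and lists were chosen with earlier results of these data known. Symbols matched 54723 of 54838 identifiers. Same-strand exon overlap was found for Onecut1, with Gm20649 (0 counts). The fit was tested on simulated data. Tables and figures used Python 3.11.15, pandas 2.3.3, scipy 1.17.1 and matplotlib 3.10.9.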

Additional observations from a re-analysis of the deposited data

Results flagged for a closer look

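The following genes responded differently to CCl4 and to PH in the fit of all 16 samples (edgeR adjusted p under 0.05). Values are the log2 fold change of CCl4 over olive oil minus that of PH day 3 over PH day 0, and the injection and surgery experiments cannot be told apart from the challenges. Among the 10 growth hormone axis genes, these were Ghr at -1.11 and Igfals at -1.25. In the receptor signalling list it was Cbl at 1.30, with 22.0 ± 3.92 CPM in CCl4 livers and 10 ± 3.13 CPM in olive oil livers, and 10.8 ± 1.54 CPM at PH day 3 and 12.4 ± 3.02 CPM at PH day 0. The IGF2 and mannose 6-phosphate receptor Igf2r differed by -0.76. It was higher after PH, at 57.4 ± 7.89 CPM against 37.7 ± 1.9 CPM at PH day 0, and averaged 47.0 ± 3.85 CPM after CCl4 against 52.1 ± 2.87 CPM after olive oil. Among the male-biased genes with the smallest adjusted p, Susd4 differed by -2.89, Cyp4a12b by -3.84 and Mup7 by -1.34. The female-biased Cyp2a4 differed by -6.33, with 2.94 ± 2.38 CPM after CCl4 against 209 ± 46.5 CPM after olive oil, and 59.4 ± 22.7 CPM at PH day 3 against 48.2 ± 15.1 CPM at PH day 0. Hamp differed by 3.13, Nr1h4 by -0.88 and Onecut2 by -0.60. With library size only, Igf2r (-0.49), Nr1h4 (-0.61), Onecut2 (-0.30) and Ghr (-0.79) were not called. Hamp was not called without any 1 olive oil liver (2.85 to 3.32), Cbl not without olive oil replicate 3 (1.08), and Onecut2 not without olive oil replicate 2 or 3. Without CCl4 replicate 1, 6 female-biased genes were lower for the difference, against 1 with it, and 5 transcription factors were lower and 1 higher, against 2 and 0. In groups of 5, a single sample lay far from the others for 5 of 88 pairs of gene and group, where chance marks about 1 in 20. None of these were among the 10 axis genes, and groups of 3 were not examined in this way. PH day 0 replicate 12 had 47.3 CPM of Pik3r1 (group mean 63.7 ± 9.43), 655 CPM of Elovl3 (395 ± 147) and 19.7 CPM of Foxa2 (35.3 ± 8.81). PH day 0 replicate 13 had 54.8 CPM of Ppara (41.1 ± 7.86), and PH day 3 replicate 14 had 54.8 CPM of Prox1 (74.6 ± 11.3).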

How the results depend on the processing

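Ghr and Igfals kept their calls after CCl4 under all 12 alternatives, and Ghr, Igfals and Socs2 theirs after PH under all 17. Leaving out 1 library gave 2 to 4 of the 10 genes after CCl4 (4 without CCl4 replicate 1), 3 to 4 after PH, 2 to 3 for the difference and 0 to 2 for olive oil against PH day 0. Over all genes it gave 1492 to 3513 calls after CCl4 (2599 with all livers), 384 to 931 for the difference (633) and 84 to 232 for olive oil against PH day 0 (287). With library size only, 1 of the 10 genes was called for the difference and 1 for olive oil against PH day 0, where DESeq2 called 2 and 437 genes in all. The signs of uncalled values turned as follows. After CCl4, library size only gave 0.16 for Stat5b, 0.32 for Socs2 and 0.03 for Onecut1, and 0.02 for the difference of Stat5b. Leaving out livers gave -0.37 to 0.46 for Socs2 (above 0 at 0.13 and 0.46) and -0.03 to 0.85 for Cish. After PH, Stat5b was at 0.00 with DESeq2 and RLE factors, 0.14 with library size only and -0.09 to 0.12 with samples left out. With samples left out Stat5a ranged from -0.05 to 0.16 and Bcl6 from -0.85 to 0.34, and with library size only Bcl6 was at 0.10. The log2 Stat5b to Stat5a ratio ranged from -0.16 to 0.08 after PH (0.02 and 0.08 without replicates 12 and 15 of PH day 3) and from -0.84 to -0.60 after CCl4. The cause was not tested. Library size only turned the calls for the difference to 75.9% higher, against 27.5%, and those for olive oil against PH day 0 to 37.1%, against 49.1%. Same-numbered PH samples, with the letter N of some labels left out, correlated at -0.03 to 0.10 in their deviations from the group means. Pairs of different numbers correlated at -0.09 to 0.05. PH day 3 replicates 12, 15 and 16 correlated best with their own number at PH day 0, and replicates 13 and 14 did not. PH day 0 replicate 12 correlated best with PH day 3 replicate 14, at 0.05. The N is on replicates 12, 13 and 14 of PH day 3, but on replicate 12 alone of PH day 0. Numbers 13 and 14, labelled differently on the 2 days, correlated at -0.02 and -0.03. Numbers 12, 15 and 16, labelled alike, correlated at 0.03, 0.08 and 0.10. The labels do not say what a number or the N marks, so no pairing was assumed. Whether the N goes with the values of PH day 0 replicate 12 was not tested. With the replicate block, 4 of the 10 genes were called after PH, Onecut1 being added at -1.04 (adjusted p = 0.00065), Stat5b was at 0.01, and the Stat5b to Stat5a ratio stayed at -0.03. Low counts limit Cux2, and the spread within groups limits Cish and Bcl6.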
